A study of Mus musculus with 2 samples.

Results

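Cluster 7 is one of 12 numbered groups into which the authors had sorted the single cells of this series, and it was examined here as the cells that carry that number and a single hashtag. It held 478 of 7479 such singlets (6.39%, exact binomial 95% interval 5.85 to 6.97), and the other clusters held 7001. Its working label, mixed tissue cells, was checked against the hashtags and against cell type markers. Cells of all 10 hashtagged populations were found in it, and 476 of its 478 cells (99.6%) had UMIs (unique molecular identifiers, each standing for 1 captured RNA molecule) of at least 3 of the 11 NK cell markers. So did 99.9% of the other cells, and this count does not set the cluster apart.

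The study asked how cyclic fasting alters natural killer (NK) cells in different tissues of tumour-bearing mice. The mice were C57BL/6, aged 12 weeks, and MC38 tumour cells (a mouse colon carcinoma line) were injected under the skin before feeding ad libitum or cyclic fasting. Cells negative for lineage markers and positive for NK1.1 and CD49b were sorted from spleen, bone marrow and tumour, tagged with 1 hashtag per population, mixed and captured together on 1 lane of the 10X Chromium. The populations were ad libitum, fasted and refed cells of each tissue and a spleen population labelled naive. The labels leave out what "naive" stands for, how long fasting and refeeding lasted, and how many mice each population pools.

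NK cells are innate lymphocytes that kill infected or transformed cells by releasing granzymes and perforin, and that secrete interferon-gamma and chemokines. They form in the bone marrow and acquire the receptor Klrg1 and the transcription factor Zeb2 as they mature and leave for blood and spleen. Droplet methods capture RNA by its poly(A) tail, which mature ribosomal RNA lacks, so reads from ribosomal RNA are usually scarce. In mouse data such reads tend to be assigned to a few genes that overlap or resemble the ribosomal RNA repeat, among them the non-coding genes Gm42418 and AY036118 and the gene Lars2, which encodes the mitochondrial leucyl-tRNA synthetase.

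The cells of cluster 7 had in common a high share of UMIs on these genes, beside the NK markers that nearly all sorted cells carried, and came from all tissues and diets. The longest run of A in the transcripts of Gm42418 and AY036118 is shown here in capitals within its flanking bases, because oligo(dT) pairs with A. The bases are from the GENCODE M21 transcripts (mm10) and are written in the sense of each transcript.
Gm42418-201: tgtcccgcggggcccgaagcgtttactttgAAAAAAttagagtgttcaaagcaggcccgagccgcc
AY036118-201: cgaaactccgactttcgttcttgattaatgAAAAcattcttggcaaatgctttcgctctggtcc
The Gm42418 transcript is 1831 bases long, its single run of 6 A lies at bases 210 to 215, and the stretch shown is chr17:39847137-39847202 on the plus strand. A run of 6 A was held by 48.7% of the 8195 transcripts within 10% of that length. The AY036118 transcript is 923 bases long and has 3 runs of 4 A, of which the first, at bases 659 to 662, is shown (chr17:39847344-39847407, minus strand). A run of 4 A was held by 91.4% of the 10334 transcripts of like length. Such a run is a description of the letters and no evidence of priming.

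Gm42418 is annotated as a long intergenic non-coding RNA at chr17:39846958-39848788 on the plus strand, and AY036118 lies within it on the opposite strand at chr17:39847113-39848035. Gm26917, another non-coding gene, lies directly upstream at chr17:39843013-39846341. RefSeq (GRCm38.p6) places AY036118 elsewhere, at chr17:39848112-39898385, and lists Gm42418 as a synonym of Rn18s-rs5, a pseudogene related to 18S ribosomal RNA, at chr17:39846354-39848202. Whether counting used strand is not stated, so reads of Gm42418 and AY036118 cannot be told apart where an annotation has the genes overlap, and which annotation the counting used is not stated. Lars2 is a protein-coding gene at chr9:123366927-123462666.

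Gm42418, AY036118 and Lars2 together took 7.41% of the UMIs of cluster 7 and 1.87% of those of the other clusters, where the cluster values lay between 0.855% and 2.31%. Per cell the median was 7.52% in cluster 7 (5th to 95th percentile 3.81 to 19.8, range 2.69 to 35.3) and 2.08% in the rest (95th percentile 3.56, highest 6.61). In cluster 7, 469 of 478 cells (98.1%) were above 3.56%, as were 0.364% to 7.50% of the cells of any other cluster. The distributions overlapped between 2.69% and 6.61%. Since the cluster was drawn from the same UMIs, this separation is a description of it and not a test.

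**Figure D1:**
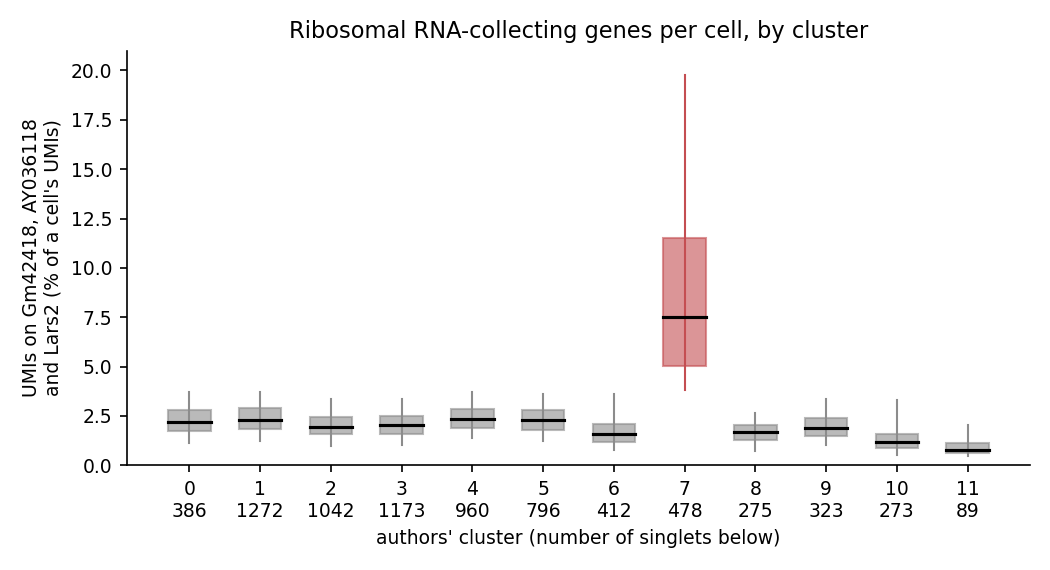
Percent of a cell's UMIs on Gm42418, AY036118 and Lars2 (y axis) in the singlets of each of the authors' clusters (x axis, number of cells below); black lines are medians, boxes hold the middle 50 percent of cells and whiskers run from the 5th to the 95th percentile. Cluster 7 has a median of 7.52% and whiskers from 3.81% to 19.8%, above the medians of all other clusters.

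The same difference was present in each of the 10 populations. Over populations the share was 6.24% at its lowest, 6.97% at the median and 11.1% at its highest in cluster 7, against 1.02%, 1.65% and 2.38% in the other cells. The lowest value in cluster 7 belonged to fasted spleen and the highest to fasted tumour, and the ranges did not overlap. They could not have, since the lowest share of any single cell of cluster 7, 2.69%, was above 2.38%. Gm42418 alone had 71341 CPM (UMIs scaled to a total of 1000000 per group) in cluster 7 and 17550 in the other clusters. Its log2 ratio of CPM + 5, the scale of every ratio given below, was 2.02 (2.01 to 2.03); these intervals are 95% and cover counting error only.

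In single populations Gm42418 had 61347 CPM in ad libitum spleen, 59788 in fasted spleen, 74707 in refed spleen and 65847 in naive spleen. It had 77967 CPM in ad libitum, 87655 in fasted and 63835 in refed bone marrow, and 107451 in fasted and 67655 in refed tumour. Every one of these values was above the highest Gm42418 level of the other cells, 22298 CPM. Ad libitum tumour, with 16 cells of the cluster, fell below the 20 cells set for a ratio within a population. Lars2 was 1143 against 386 CPM (1.55, 1.49 to 1.62) and AY036118 1594 against 741 CPM (1.10, 1.04 to 1.16), and both were higher in 9 of the 9 populations compared. Gm26917 was 167 against 59.4 CPM (1.42, 1.24 to 1.59) and was higher in 7 of 9.

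Cells of cluster 7 carried less RNA than most, with a median of 2710 UMIs and 1169.5 genes against 4502 and 1647 in the other clusters. The cluster summed to 1709160 UMIs and the rest to 40851519. The share of UMIs on the 3 genes was higher in cluster 7 at every depth, as follows from no member being below 2.69%. Its median was 10.6%, 9.94%, 7.09%, 4.78% and 5.30% in cells of 500 to 1000, 1000 to 2000, 2000 to 4000, 4000 to 8000 and at least 8000 UMIs, against 2.33%, 1.89%, 2.41%, 2.08% and 1.45% in the other cells of those depths. The median mitochondrial share was 3.004% against 2.83%, that of ribosomal protein genes 19.8% against 22.4%, and that of the nuclear RNA Malat1 2.14% against 2.71%. The ribosomal protein share was lower in cluster 7 in all 10 populations, with the widest gaps in fasted bone marrow (20.5% against 30.4%) and fasted tumour (17.5% against 27.3%). Malat1 ran from 0.950% against 1.71% in refed tumour to 2.04% against 1.26% in ad libitum tumour. Hashtag doublets made up 250 of 728 classified barcodes of cluster 7 (34.3%, 30.9 to 37.9) and 43.3% of those of the other clusters.

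Spleen gave 284 cells of the cluster (59.4%), bone marrow 102 (21.3%) and tumour 92 (19.2%). As a share of each population's singlets, cluster 7 was 3.71% of ad libitum spleen (67 of 1804, 2.89 to 4.69), 7.55% of fasted spleen (105 of 1391, 6.22 to 9.06), 5.35% of refed spleen (79 of 1476, 4.26 to 6.63) and 4.03% of naive spleen (33 of 818, 2.79 to 5.62). In bone marrow it was 6.61% of ad libitum cells (38 of 575, 4.72 to 8.96), 25.7% of fasted cells (35 of 136, 18.6 to 33.9) and 8.61% of refed cells (29 of 337, 5.84 to 12.1). In both tissues the fasted share was above the ad libitum share with intervals that did not overlap, and in bone marrow the fasted interval also lay above that of refed cells. In tumour the order was another: 34.8% of ad libitum cells (16 of 46, 21.4 to 50.2), 6.74% of fasted cells (54 of 801, 5.11 to 8.71) and 23.2% of refed cells (22 of 95, 15.1 to 32.9).

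The 3 populations with the largest shares, ad libitum tumour, fasted bone marrow and refed tumour, were also those with the fewest singlets. With 1 hashtagged population per condition no test of diet was possible, and these intervals cover counting error only. The cells had been mixed at equal ratios according to the labels' protocol, and the part of recovery in the shares was not tested. Among cells of at least 1000 UMIs the shares kept this order in bone marrow (6.01%, 22.8% and 7.83%) and in tumour (31.7%, 5.91% and 21.1%).

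**Figure D2:**
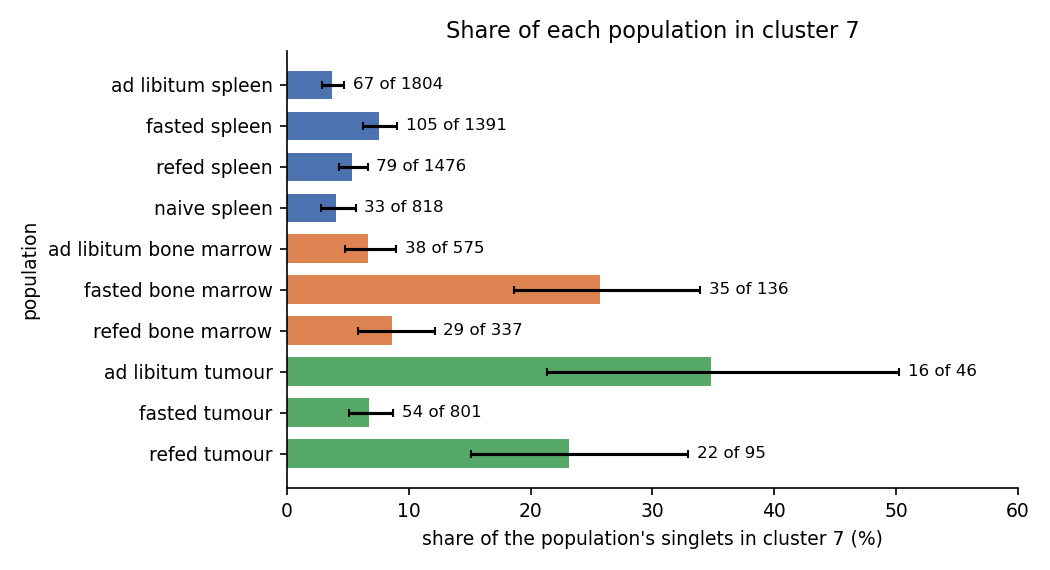
Share of each hashtagged population's singlets that lay in cluster 7 (percent, exact binomial 95% intervals for counting error). Fasted bone marrow (25.7%), ad libitum tumour (34.8%) and refed tumour (23.2%) stand above the other 7 populations, which lie between 3.71% and 8.61%.

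Of 5704 genes at 20 CPM or more in either group, 47 (0.824%) were at least 2-fold higher in cluster 7 than in the other clusters and 13 (0.228%) at least 2-fold lower. All genes together had a median log2 ratio of 0.11, and scaling by TMM factors (trimmed mean of M values) in place of total UMIs moved that median by -0.17. Apart from the ribosomal RNA-collecting genes, the highest ratios belonged to genes of macrophages and antigen-presenting cells. Lgmn (2.00), Tgfbi (1.98), Ms4a6d (1.74), Grn (1.44), Apoe (1.27) and the complement gene C1qa (1.25) were among the 15 highest. Class II antigen-presentation genes followed, with H2-Ab1 at 1.52, H2-Eb1 at 1.42, H2-Aa at 1.27 and the invariant chain Cd74 at 1.12.

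These values came from few cells. A single cell of ad libitum tumour held 84.4% of the H2-Ab1 UMIs, 87.0% of those of H2-Eb1 and H2-Aa and 80.1% of those of Cd74. With each gene's highest cell left out in each group, H2-Ab1 was at -0.74 and Cd74 at -0.85. The cytokine Il1b (1.09) and the interferon-induced antiviral gene Rsad2 (1.06) were among the 15 highest as well, with Lars2 and AY036118. Only Lars2 and AY036118 of these 15 were higher in each of the 9 populations.

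The lowest ratios belonged to genes of neutrophils and to granzymes. The neutrophil granule gene Camp was at 7.61 against 69.7 CPM (-2.57), and S100a9 (-2.51) and S100a8 (-2.40), which encode calprotectin, were similarly low. Cells with at least 3 neutrophil markers were few in both groups and not rarer in cluster 7, 2 (0.418%) against 22 (0.314%). Gzmd (-1.93), Gzme (-1.85), Gzmf (-1.70) and Gzmc (-1.59, 692 against 2098 CPM) are further granzymes. Spp1 (-1.45), which encodes osteopontin, Lyz2 (-0.94), Gadd45g (-0.85) and Xcl1 (-0.65), the chemokine XCL1, were also among the 15 lowest. Rtcb (-0.68), Ctla2a (-0.66), Exosc4 (-0.65) and Cenpa (-0.64) completed them with smaller ratios. Exosc4, Ctla2a and Rtcb were lower in each of the 9 populations.

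Within populations, 210 genes (3.68%) were higher in cluster 7 in each of the 9 and 240 (4.21%) were lower in each. Utrn, which encodes the cytoskeletal protein utrophin, was at 63.8 against 28.6 CPM (1.03). The beta-actin gene Actb was at 10164 against 7424 CPM (0.45), with a lowest, median and highest population of 7594, 10183 and 14993 CPM against 5285, 7632 and 8728 in the other cells. Eomes, a transcription factor that defines NK cells, was at 281 against 204 CPM (0.45; 0.10 to 1.23 over populations). Genes of signalling and the cytoskeleton were among the others: Syk (0.74), Pxn (0.69), Sptbn1 (0.68) and Ahnak (0.57). Cytosolic ribosomal protein genes, which encode the proteins of the ribosome, made up 69 of the 240 lower genes and 0 of the 210 higher ones, of 87 among the 5704 genes compared. The glycosylphosphatidylinositol-anchored surface genes Cd52 (-0.48, 2509 against 3514 CPM) and Cd48 (-0.58) were lower in each, as were the amino acid transporter subunit Slc3a2 (-0.60) and the proteasome subunit Psma2 (-0.55).

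Long transcripts were high and short ones low in this comparison. Of 5574 genes with a transcript length, sorted by length into 5 classes of equal size, the shortest class had a median log2 ratio of -0.21, and the median was -0.02, 0.15, 0.25 and 0.37 in the following classes. The share of genes higher in cluster 7 was 19.6% in the shortest class and 90.2% in the longest. Across genes, which are not independent replicates, Spearman's rho of length and ratio was 0.58. Cluster 6 had 0.53 and cluster 9 had 0.58, while the remaining clusters lay between -0.32 and 0.33. With medians of 2205 and 1399 UMIs per cell, clusters 6 and 9 were the only clusters shallower than cluster 7. All 9 populations had a lower median in the shortest class (-0.58 to -0.13) than in the longest (0.14 to 0.76). Ahnak, with a transcript of 18100 bases, and Utrn, with 12382, stand at one end, and Cd52, with 514 bases, at the other. The part of length in the ratios of single genes was not tested.

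**Figure D3:**
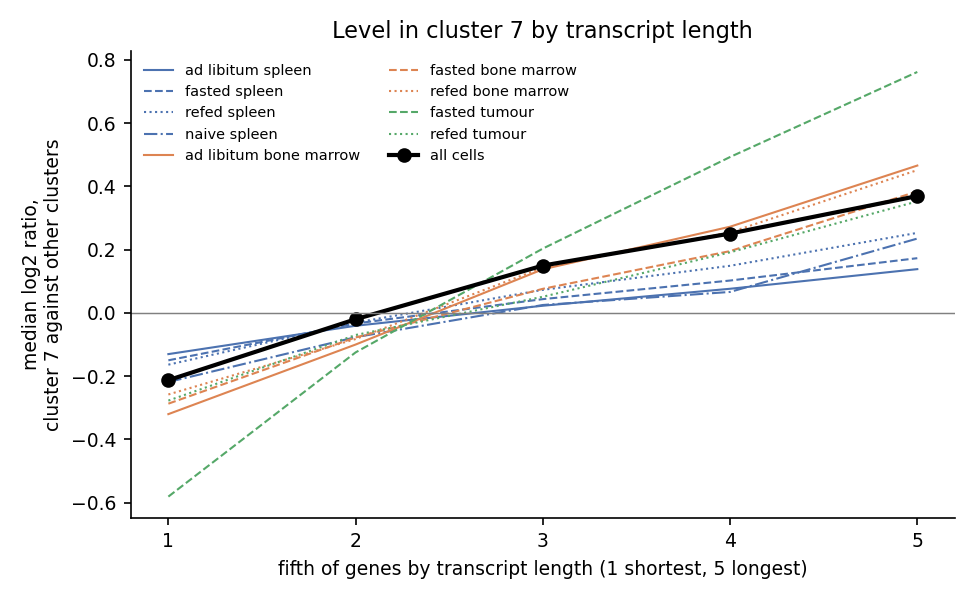
Median log2 ratio of cluster 7 to the other clusters (y axis) in 5 classes of genes by transcript length (x axis), over all cells (black) and in each of 9 hashtagged populations (coloured lines). The median over all cells goes from -0.21 in the shortest class to 0.37 in the longest, and fasted tumour has the steepest line (-0.58 to 0.76).

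The NK cell programme was present at levels slightly under those of the other clusters. The 11 NK markers summed to 20741 against 26461 CPM, and 2 of them were higher, with a median of -0.29. Ncr1, which encodes the activating receptor NKp46, was at 716 against 925 CPM (-0.37, -0.45 to -0.29) and was higher in 1 of 9 populations. Klrb1c, which encodes the sorting marker NK1.1, was at 603 against 569 CPM (0.08), with population values of 172 to 875 CPM against 157 to 736. The receptor genes of the fixed NK list had a median of -0.16, with 3 of 16 higher.

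Effector genes were lower. Of 14 cytotoxic effectors 2 were higher and 5 were at least 2-fold lower, with a median of -0.41. Gzma was at 8651 against 11910 CPM (-0.46), Gzmb at 972 against 1438 (-0.56) and the perforin gene Prf1 at 229 against 280 (-0.28). Of 7 cytokines and chemokines 0 were higher (median -0.33), with Ccl5 at 12719 against 15409 CPM (-0.28) and Ifng at -0.27. Over populations Gzma ran from -0.70 to 0.11, Gzmb from -1.29 to 0.35 and Prf1 from -1.44 to 0.53, so none of the 3 was lower everywhere.

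Genes of NK maturation showed no single direction. Of 12 mature NK genes 5 were higher (median -0.06) and of 10 immature NK genes 6 (median 0.08). The integrin Itgam was at 0.40, the transcription factor Tbx21 at 0.21 and Cd27 at 0.15 (-0.06 to 0.36), while Klrg1 was at -0.06 and the egress receptor S1pr5 at -0.05. Klf2, which restrains proliferation and directs lymphocyte traffic, was at 682 against 824 CPM (-0.27), Il12rb2, a subunit of the interleukin-12 receptor, was at 0.30, and the chemokine receptor Cxcr4 at 0.00.

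Among metabolic and stimulus lists, oxidative phosphorylation was lower in 21 of 22 genes (median -0.29). Glucocorticoid targets were higher in 10 of 10 (median 0.31), genes of FOXO and KLF2 quiescence in 10 of 12 (0.33) and DNA replication genes in 10 of 14 (0.36). Interferon-induced genes were higher in 15 of 17 (0.41), and their median was -0.02 once sub-clusters 3 and 5, described next, were left out. Dividing cell markers were higher in 5 of 10 (0.09). Against the median of 0.11 over all genes, these shifts were of modest size. Markers of macrophages had a median of 1.26 (9 of 10 higher) and those of neutrophils of -2.54 (0 of 4).

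Clustering the 478 cells again gave 6 sub-clusters. Sub-cluster 0 (156 cells, 142 of them from spleen) was led by Kcnj8 (2.14 against the remaining cells of the cluster), the maturation receptor Klrg1 (1.93, 176 against 42.7 CPM) and the chymase Cma1 (1.91), with Zeb2 at 1.53. Sub-cluster 1 (116 cells) had the lowest median depth, 1446 UMIs, and the highest median share of UMIs on the 3 genes, 11.5%. Its leading genes were Dctn4 (2.02), Cog3 (1.92) and Abhd2 (1.62), at 51.0 to 164 CPM.

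Sub-cluster 2 (89 cells) held 79 of the 92 tumour cells: 14 ad libitum, 46 fasted and 19 refed. Gzmc led it at 3242 against 112 CPM (4.79), with the angiogenic factor Vegfa (3.65), Pmepa1, a target of TGF-beta (3.64), the activation gene Nr4a1 (3.56) and the NF-kappaB inhibitor Tnfaip3 (3.41). Ifitm1 (3.96), Clec4e (3.93) and Hdc (3.70) ranked above Vegfa but had UMIs in only 10.1%, 3.37% and 2.25% of the cells of sub-cluster 2. Sub-cluster 4 (27 cells, 18 of them from bone marrow) was led by genes of the cell cycle, among them the mitotic motor Kif11 (5.07), topoisomerase Top2a (4.98, 1511 against 43.1 CPM) and Mki67 (4.77), and 4 of the fixed markers of dividing cells stood among its top 10 genes. It had the highest median depth, 5722 UMIs.

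The other pair had markers of other cell types from the fixed lists among the top 10 genes. Sub-cluster 3 (72 cells, 40 of them from bone marrow) was led by the CD3 chains Cd3g (4.43) and Cd3e (3.61), Il7r (3.58), Cd3d (2.65) and Ltb (2.61). UMIs of these genes were met in 18.1%, 5.56%, 16.7%, 12.5% and 47.2% of its cells, in this order. Sub-cluster 3 kept NK markers at 14810 summed CPM, and since T cell and ILC1 markers both stood among its leading genes it was given no name. Sub-cluster 5 (18 cells) was led by Cd74 (8.77), H2-Aa (7.66), Lyz2 (7.45), Apoe (7.20) and the Fc receptor Fcgr1 (7.01), with macrophage markers at 10805 summed CPM; macrophage and dendritic cell markers were equal in number among its top 10 genes, and it was given no name either. The 6 sub-clusters had median shares of UMIs on the 3 ribosomal RNA-collecting genes between 5.17% and 11.5%. Any part of cluster 7 would lie above the highest median of another cluster, 2.33%, since none of its cells had less than 2.69%.

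**Figure D4:**
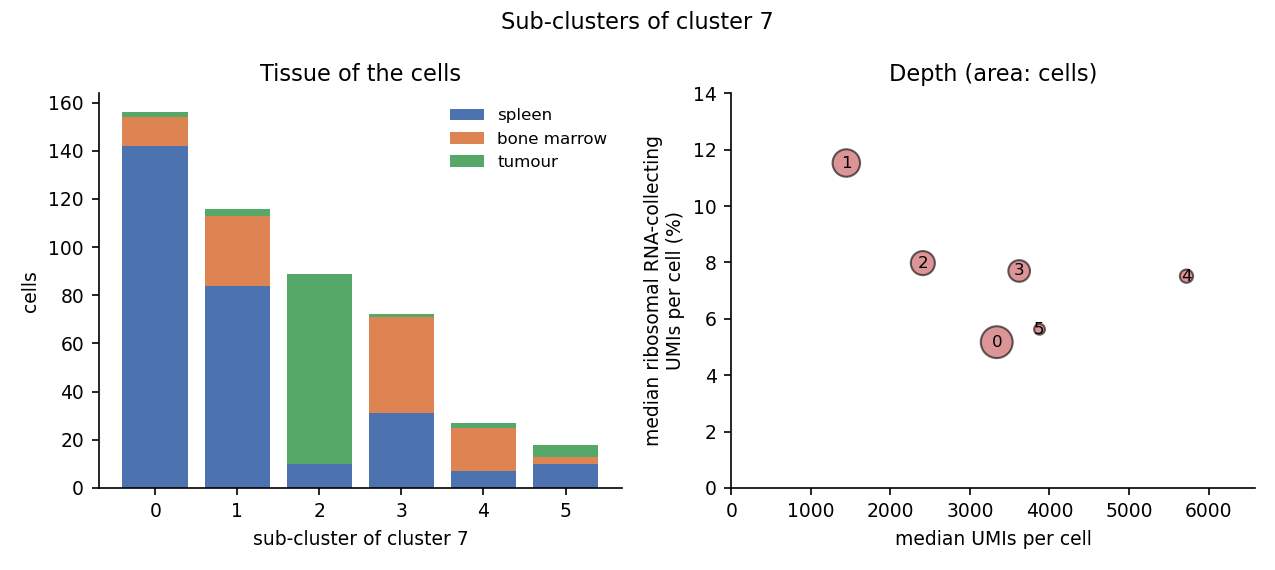
Left, cells of each of the 6 sub-clusters of cluster 7 by tissue; right, median UMIs per cell (x axis) and median percent of UMIs on Gm42418, AY036118 and Lars2 (y axis), with the area of a point scaled to the number of cells. Sub-cluster 0 is mostly spleen (142 of 156 cells) and sub-cluster 2 mostly tumour (79 of 89), and sub-cluster 1 has the lowest median depth (1446 UMIs) and the highest share (11.5%).

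Cells with UMIs of at least 3 markers of another type were counted in the whole cluster. Macrophage markers were met in 27 cells (5.65%, 3.76 to 8.11) against 111 (1.59%) of the other cells. After thinning each cell to 1500 UMIs they were met in 12 of 359 (3.34%) against 55 of 6618 (0.831%); the remaining cells of cluster 7 were too shallow to enter. Cluster 7 held 19.6% of all singlets with such markers. In cluster 10, whose cells are deep, 48 cells (17.6%) had them. By population their share in cluster 7 ran from 0% in fasted bone marrow (0.990% of the other cells) to 10.3% in refed bone marrow (2.27%). It was also below that of the other cells in ad libitum tumour (6.25% against 10%) and refed tumour (4.55% against 5.48%), and near it in ad libitum bone marrow (5.26% against 4.66%). Of the 27 cells of cluster 7 with macrophage markers 26 also met the NK count, as did all 44 cells with T cell markers named next. Since 99.6% of cluster 7 and 99.9% of the other cells met the NK count, such overlap was near certain. It does not tell what these cells are.

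T cell markers were met in 44 cells (9.21%) against 14.7% of the other cells, and in 2.51% against 3.48% after thinning. Dendritic cell markers were met in 9 cells (1.88%) against 0.871%, dividing cell markers in 47 (9.83%) against 8.98% and ILC1 markers in 9 (1.88%) against 3.74%. After thinning these shares were 1.11% against 0.332%, 5.85% against 4.35% and 0.557% against 0.453%, the last from 2 and 30 cells. Neutrophil markers were met in 2 cells (0.418%) against 0.314%, and in 0.557% against 0.121% after thinning. Erythroid markers were met in 3 cells (0.628%) against 0.457% and progenitor markers in 1 (0.209%) against 0.171%. For ILC2, B, plasma, plasmacytoid dendritic, basophil or mast, platelet and tumour epithelial or stromal markers the count was 0 of 478 cells, which allows up to 0.628% (3 cells) of cells that meet this count. It limits cells with such UMIs at this depth and not cells of these types. Free RNA can give single UMIs of such genes, and its part in these counts was not tested.

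The members were also compared with the other clusters over 16676 genes, without ribosomal RNA-collecting, mitochondrial and ribosomal protein genes. Each was assigned to the other cluster of the most similar profile, a step added after the data were seen. Cluster 1 took 116 cells (24.3%), cluster 4 took 85 (17.8%), cluster 0 took 48 (10.0%) and cluster 2 took 46 (9.62%). Each of the remaining 7 took between 6 (1.26%) and 38 (7.95%). By the same measure 77.6% of the other cells returned to their own cluster, and 56.9% of those of cluster 1. Each of these cells had been part of its own cluster's profile, which raises such values. Of tumour cells in cluster 7, 46.7% went to cluster 0, as did 47.4% of the tumour cells outside it. Of spleen cells, 32.4% went to cluster 1 and 27.8% to cluster 4, against 17.4% and 25.3%. Of bone marrow cells, 27.5% went to cluster 2, against 43.3%, and 18.6% to cluster 10, against 17.8%. No single cluster took more than 24.3% of the members.

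As a summed profile cluster 7 was nearest to cluster 1 (Pearson's r 0.961 of log2 CPM + 5 over 7139 genes) and then to cluster 2 (0.950). Against cluster 1, 127 of 5764 genes (2.2%) were at least 2-fold higher and 3 (0.052%) lower. The highest were H2-Ab1 (4.34), Cd74 (4.08), H2-Aa (4.05), Apoe (4.01), Tgfbi (4.00) and H2-Eb1 (3.93), genes of antigen presentation and macrophages. The lowest were Gzmf (-1.41), the receptor Cd160 (-0.90), Phactr3 (-0.83), Yaf2 (-0.79), Ttc19 (-0.79) and Anxa1 (-0.77). Against cluster 2, 296 of 5657 genes (5.23%) were higher and 15 (0.265%) lower. The chemokine Cxcl2 (4.17), Apoe (3.92), Tgfbi (3.86), Il1b (3.62) and Lgmn (3.44) were among the 6 highest. Cd3d (-2.22), Ltb (-1.79), Cd3g (-1.60), Cd160 (-1.32), Cxcr3 (-1.21) and Il7r (-1.10) were lowest, so cluster 2 had more of the genes that led sub-cluster 3.

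Diet was not part of how the members were chosen, and it was compared within cluster 7 wherever both populations had 30 cells. A gene was counted when it stood at 50 CPM or more in either population, differed at least 2-fold and had an interval that left out a ratio of 1. Counts and medians of the gene lists, here and below, took members at 20 CPM or more in either population, a level of few UMIs here. The members taken can therefore differ between cluster 7 and the other clusters, and some entered only through the population where they were higher. Between fasted and ad libitum spleen (335903 and 257028 UMIs, 6.24% and 6.40% of them on the 3 ribosomal RNA-collecting genes), 96 of 3262 genes (2.94%) were higher and 93 (2.85%) lower. The same direction was seen in the other clusters for 153 of these genes. The share with the same direction over all compared genes was not computed, so such counts, here and below, have no baseline. Several comparisons share a population, as fasted spleen does here and in the comparison with refed spleen, and their values are set side by side and not as independent evidence.

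Glucocorticoid targets stood higher in fasted spleen, with 9 of 11 genes above ad libitum spleen and a median of 1.17, against 9 of 10 and 0.88 in the other clusters. Txnip, an inhibitor of glucose uptake, was at 515 against 226 CPM (1.17, 0.74 to 1.62) and at 1.19 in the other clusters. Pik3ip1, an inhibitor of PI3-kinase, had 34 against 7 UMIs (1.72, 0.65 to 2.85), and the interleukin-7 receptor Il7r 20 against 3 (1.95, 0.53 to 3.26). Il7r went to -0.97 without sub-clusters 3 and 5, and the list's median to 0.65 without them and to 0.31 after thinning. Since Il7r was a leading gene of sub-cluster 3, leaving those cells out lowers it by construction and is no test of its ratio. Sub-cluster 3 held 14 fasted and 5 ad libitum spleen cells. Tsc22d3, which encodes GILZ, had 0.39 (-0.18 to 0.97) in cluster 7 and 1.36 in the other clusters, and Fkbp5, a chaperone of steroid receptors, had 0.10 and 1.11. The intervals of both in cluster 7 included 0.

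Markers of dividing cells were lower in fasted spleen in 8 of 8 genes (median -1.49, against -0.89 in the other clusters). Mki67 had 9 against 31 UMIs (-1.98, -3.005 to -0.99). The median of the list was -0.69 with each gene's highest cell left out.

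Immature NK genes were higher in fasted spleen in 10 of 11 (median 0.65, against 0.30 in the other clusters), among them Ltb (1.75), Thy1 (1.12) and Emb (1.04). Ltb and Il7r of this list were leading genes of sub-cluster 3, which held 14 of the 105 fasted and 5 of the 67 ad libitum cells. The part of those cells in the list's median was not tested. Glycolysis genes were lower in 12 of 13 (median -0.79, against -0.10 in the other clusters). The enolase Eno1 was at -1.52, the isomerase Tpi1 at -1.41, Gapdh at 307 against 661 CPM (-1.10) and pyruvate kinase Pkm at -1.08. The median of the list was -0.38 when every cell had the same weight and -0.49 without sub-clusters 3 and 5. Of 15 interferon-induced genes 6 were higher (median -0.034, against -0.42 in the other clusters), with Ifi27l2a the lowest at 2 against 23 UMIs (-3.11). Whether cluster 7 differed from the other clusters in these lists was not tested.

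Between refed and fasted spleen, 106 of 3341 genes (3.17%) were higher and 98 (2.93%) lower, 148 of them in the same direction in the other clusters. Glucocorticoid targets were lower in 11 of 11 (median -1.56, against -0.999). Txnip was back at 226 CPM (-1.17, -1.65 to -0.72), and Tsc22d3 was at -0.99 (-1.71 to -0.30). Pik3ip1 had 0 against 34 UMIs and was at least 7.33-fold lower, and Il7r had 0 against 20 and was at least 4.31-fold lower, counting 3 UMIs for the empty population. Cxcr4 (-2.54) and Ddit4 (-1.56), which encodes the mTOR inhibitor REDD1, were lower as well.

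Dividing cell markers were higher in refed spleen in 10 of 10 genes (median 1.97, or 1.86 with genes at 0 UMIs set to their bound, against 0.69 in the other clusters). Top2a had 70 against 14 UMIs (2.81, 2.03 to 3.64), Mki67 41 against 9 (2.61) and the microtubule regulator Stmn1 was at 1.71. Ccna2, the cyclin of DNA synthesis, had 12 against 0 UMIs (at least 6.18-fold higher), the kinetochore gene Knl1 17 against 0 (at least 8.76-fold) and the spindle gene Tpx2 11 against 0 (at least 5.67-fold). Sub-cluster 4, that of dividing cells, had 5 refed and 0 fasted spleen cells.

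Heat shock genes were higher in 8 of 8 in refed against fasted spleen (median 0.66, against 0.85 in the other clusters). Interferon-induced genes were higher in 2 of 12 (median -0.85) while in the other clusters 7 of 7 were higher (0.42). The 12 and the 7 are different sets, since a member entered at 20 CPM or more in either population compared. Members with few UMIs could enter only through the population where they were higher. The 2 medians are thus not like for like, and their difference was not tested. Ifit2 had 0 against 17 UMIs (at least 3.67-fold lower), Ifit1 was at -1.89 and Bst2 at -1.34. The median of the list was -0.29 when every cell had the same weight. Immature NK genes were higher in 0 of 10 (median -0.72, against -0.14). Sub-cluster 3, led by Ltb and Il7r of this list among others, held 8 refed and 14 fasted spleen cells.

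Between refed and ad libitum spleen, 94 of 3349 genes (2.81%) were higher and 73 (2.18%) lower. Of these genes, 86 had the same direction in the other clusters and nearly as many did not. Interferon-induced genes were higher in 2 of 12 (median -0.94, against 0.01 in the other clusters). Isg15, a ubiquitin-like antiviral protein, was at -2.37, and at 0.025 after thinning to 1500 UMIs. Glucocorticoid targets were lower in 8 of 8 (median -0.79, or -0.69 at the bound). These refed cells had 7.77% of their UMIs on the 3 ribosomal RNA-collecting genes and the ad libitum cells 6.40%, and the part of this in the ratios was not tested.

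In bone marrow, fasted and ad libitum cells of cluster 7 (35 and 38 cells, 91039 and 260265 UMIs) differed in 202 of 3538 genes higher (5.71%) and 198 lower (5.6%). Of these genes, 330 had the same direction in the other clusters. The share of UMIs on the 3 ribosomal RNA-collecting genes was 9.22% and 8.01%. Glucocorticoid targets were higher in 10 of 12 (median 1.53, against 1.16 in the other clusters). Tsc22d3 was at 198 against 61.5 CPM (1.61, 0.60 to 2.61), Txnip at 461 against 158 (1.52, 0.88 to 2.16), Il7r at 2.50 (0.94 to 3.94), Ddit4 at 2.10 and Cxcr4 at 1.53.

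Txnip was highest in the fasted population of both tissues. In cluster 7 it stood at 226, 515 and 226 CPM in ad libitum, fasted and refed spleen, and at 158, 461 and 218 CPM in the matching bone marrow populations. It was at 219 CPM in naive spleen, 173 in fasted tumour and 47.7 in refed tumour.

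Genes of dividing cells were lower in fasted bone marrow in 11 of 11 (median -2.23, or -2.14 at the bound, against -1.01 in the other clusters). Mki67 had 6 against 131 UMIs (-2.84, -4.15 to -1.74), Top2a 10 against 179 (-2.59) and Ccna2 0 against 34 (at least 3.96-fold lower), and Stmn1 was at -2.23. The median was -0.66 when every cell had the same weight, and sub-cluster 4 held 2 of the 35 fasted and 8 of the 38 ad libitum cells. DNA replication genes were lower in 15 of 15 (median -1.97, or -1.76 at the bound, against -1.22).

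NK markers were higher in fasted bone marrow in 11 of 11 (median 0.29), while in the other clusters 5 of 11 were (-0.04). Oxidative phosphorylation genes were higher in 3 of 22 (median -0.51 in cluster 7 and in the other clusters) and heat shock genes in 2 of 8 (-0.97, against -0.73). The lysozyme gene Lyz2 had 0 against 103 UMIs (at least 12.0-fold lower). A single ad libitum cell held 102 of those UMIs, 51.0% of all Lyz2 UMIs of cluster 7.

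Ad libitum spleen was compared with the population labelled naive, which had 33 cells and 91424 UMIs in the cluster. Here 81 of 3520 genes (2.3%) were higher and 159 (4.52%) lower, 143 of them in the same direction in the other clusters. TMM scaling moved the median of all genes by 0.16. Dividing cell markers were higher in 8 of 8 (median 1.53, against 0.04 in the other clusters), and macrophage markers in 5 of 5 (1.32, or 1.05 at the bound). Sub-cluster 4, that of dividing cells, held 2 ad libitum and 0 naive spleen cells and sub-cluster 5 held 3 and 1. Interferon-induced genes were higher in 10 of 13 (1.70, or 1.18 at the bound, and -0.15 after thinning, against 0.39). Etfb, a subunit of the flavoprotein that passes electrons from fatty acid oxidation, had 34 against 0 UMIs (at least 4.03-fold higher).

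Tissues were compared within the same feeding. Between ad libitum bone marrow and ad libitum spleen, 236 of 3354 genes (7.04%) were higher and 170 (5.07%) lower, 350 of them in the same direction in the other clusters. Genes of mature NK cells were lower in 12 of 12 (median -1.64, against -1.71). Klrg1 had 4 against 41 UMIs (-3.01), Cma1 was at -2.91, Gzmb at -2.22 and Zeb2 at -2.09, and the chemokine receptor Cx3cr1 had 0 against 16 UMIs (at least 5.40-fold lower). NK cells of the bone marrow are known to include less mature stages than those of the spleen.

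Dividing cell markers were higher in bone marrow in 11 of 11 (median 1.28, against 2.10 in the other clusters) and MYC and nucleolar genes in 11 of 14 (0.91, against 0.84). T cell markers were higher in 7 of 7 (1.66, or 1.62 at the bound), with Cd3g at 33 against 0 UMIs (at least 10.9-fold higher). NK markers were higher in 1 of 11 (-0.79, against -0.75). Sub-cluster 3, which the CD3 chains led, had 15 ad libitum bone marrow and 5 ad libitum spleen cells.

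Between fasted bone marrow and fasted spleen, 136 of 3486 genes (3.9%) were higher and 109 (3.13%) lower, 170 of them in the same direction in the other clusters. TMM scaling moved the median of all genes by -0.14. Mature NK genes were lower in 11 of 11 (median -1.20, against -1.96), and immediate early genes in 16 of 16 (-0.77, against -0.47). The share of UMIs on the 3 ribosomal RNA-collecting genes was 9.22% in fasted bone marrow and 6.24% in fasted spleen.

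The largest differences separated fasted tumour (54 cells, 132954 UMIs) from the other fasted tissues. Against fasted spleen 555 of 3702 genes (15%) were higher and 301 (8.13%) lower, 725 of them in the same direction in the other clusters. Interferon-induced genes were higher in 17 of 17 (median 2.66, or 2.42 at the bound, against 2.51 in the other clusters), and the median was 1.30 without sub-clusters 3 and 5. Isg15 was at 805 against 59.5 CPM (3.65) and Rsad2 at 4.61. The neutrophil chemokine Cxcl2 had 138 against 0 UMIs (at least 116-fold higher).

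Genes of TGF-beta response and tissue residency were higher in fasted tumour in 10 of 12 (median 1.75, or 1.73 at the bound, against 1.62). Tgfb1 was at 1.88, the signalling regulators Rgs2 and Rgs1 at 2.12 and 1.83, the SMAD antagonists Skil and Smad7 at 2.06 and 1.73, and the tetraspanin Cd9 was at -1.62. Mature NK genes were higher in 3 of 12 (-1.20, against -1.67): S1pr5 had 0 against 34 UMIs (at least 4.49-fold lower), Klrg1 was at -2.97 and Cma1 at -2.83, while Gzmb was at 0.78. NK receptors were higher in 1 of 16 (-1.21, against -0.98).

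Cytotoxic and respiratory genes had values in cluster 7 apart from those of the other tumour cells. Cytotoxic effectors were higher in fasted tumour in 6 of 12 (median 0.07, or 0.44 at the bound), against 9 of 13 (1.79) outside the cluster, with Gzmc at 2.64 against 6.07, Prf1 at -1.87 against -0.28 and Gzma at -1.21. The median of 0.07 became -0.01 with TMM factors and -0.26 with totals that left out ribosomal protein and mitochondrial genes. Oxidative phosphorylation genes were higher in 2 of 22 (-0.61), against 18 of 22 (0.11). Neither difference between cluster 7 and the other clusters was tested, and these tumour cells had 11.1% of their UMIs on the 3 ribosomal RNA-collecting genes against 6.24% in fasted spleen. Macrophage markers moved with the tumour comparison in cluster 7, with 11 of 12 higher (2.98, against 3.38), Apoe at 3.69 and Lyz2 at 4.95.

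**Figure D5:**
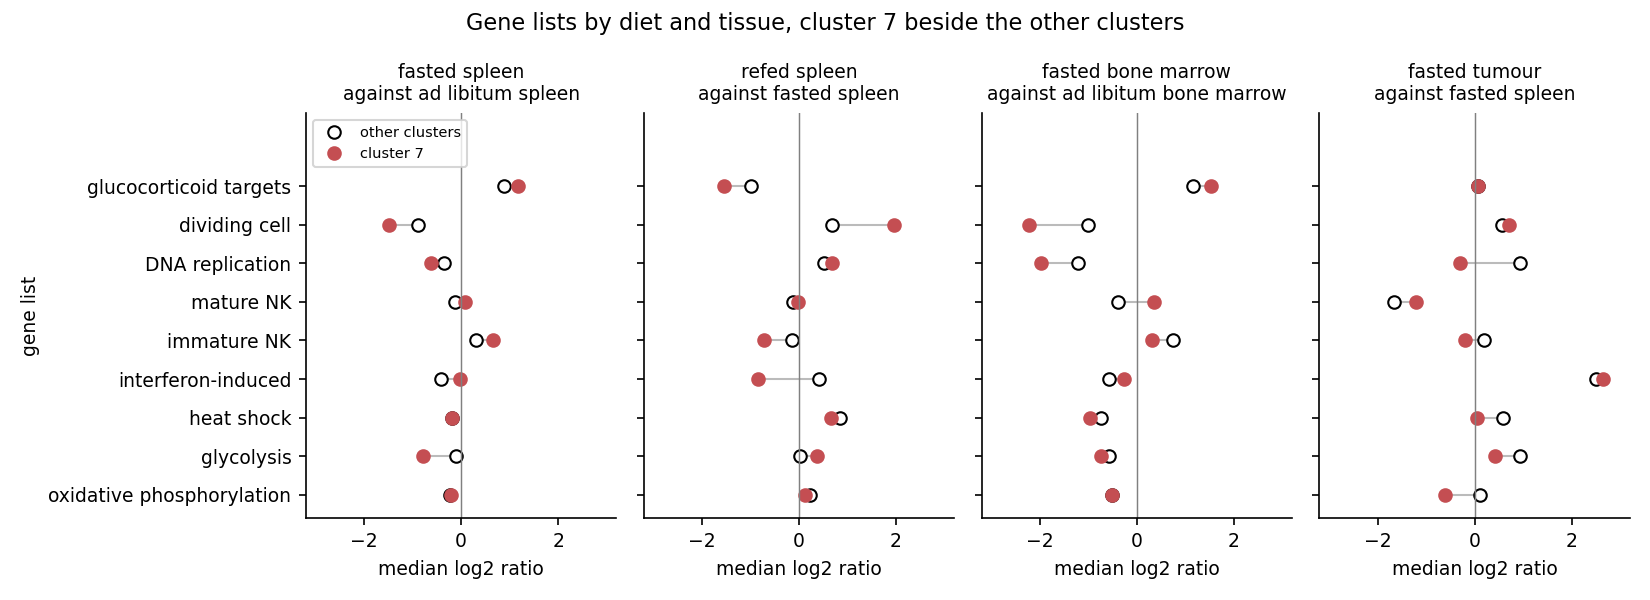
Median log2 ratio of 9 fixed gene lists (x axis) in 4 comparisons of hashtagged populations, filled points for cluster 7 and open points for the other clusters; lines join the pair of each list. Glucocorticoid targets have 1.17 and 0.88 in fasted against ad libitum spleen, and interferon-induced genes 2.66 and 2.51 in fasted tumour against fasted spleen.

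Against fasted bone marrow, fasted tumour cells of the cluster were higher in 409 of 3865 genes (10.6%) and lower in 248 (6.42%), 563 of them in the same direction in the other clusters. Interferon-induced genes were higher in 17 of 17 (median 3.53, or 2.29 at the bound, against 2.69) and immediate early genes in 17 of 17 (2.10, against 1.20). Scaling moved the median of all genes by 0.13 with TMM and by -0.12 with totals that left out ribosomal protein and mitochondrial genes.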

How the data were processed

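The authors deposited counts of UMIs per gene for 13118 barcodes, made with seqc per the labels' protocol and with mm10 per the submitters' processing notes, with a cluster number for each barcode and a hashtag class for 13085. How hashtags were classified and cells clustered is not stated. The 5606 hashtag doublets and 33 unclassified barcodes were left out, and no further doublet caller was run. The members and the gene lists were chosen with earlier results of these data known.

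UMI counts were summed per group, scaled to CPM (a total of 1000000 UMIs) and compared as log2 ratios of CPM + 5, with exact conditional binomial 95% intervals; shares have exact binomial (Clopper-Pearson) intervals. With 1 hashtagged population per condition no test was run. Named genes are the 15 highest and 15 lowest ratios at 50 CPM or more against the other clusters, the 6 of each against near clusters, up to 8 of each within the cluster, and members of the fixed lists and markers; gene models, mitochondrial, ribosomal protein, haemoglobin and antigen receptor genes were kept out of the ranks, and Gm42418, AY036118 and Gm26917 were described as members of, or next to, a fixed list. Genes higher or lower in every population, leading genes of sub-clusters and other genes outside these rules were picked after their values were seen. Sub-clusters used 2000 variable genes, 20 components, 15 neighbours and Leiden resolution 0.5 (scanpy 1.11.5, leidenalg 0.10.2), and other steps pandas 2.3.3, scipy 1.17.1 and numpy 2.4.6 under Python 3.11.15, R 4.3.3 and edgeR 4.0.16 for TMM factors. The summing and ratio steps were tested on simulated data. Thinning drew 1500 UMIs from each cell that had them. Alternatives changed scaling, cells, depth, weights, pseudocount and minimum level; totals without ribosomal RNA-collecting genes and leaving out sub-clusters within comparisons were chosen after seeing the data. Values of some genes that met these rules are not reported here.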

Additional observations from a re-analysis of the deposited data

Results flagged for a closer look

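For 4 genes of cluster 7 the fasted population lay above the ad libitum one in one tissue and below it in the other, with intervals that left out 0 in both spleen and bone marrow; the difference between the tissues was not tested. The granzyme Gzmc had a log2 ratio of -0.73 in spleen (42 against 54 UMIs) and 2.25 in bone marrow (15 against 8). The chemokine Xcl1 was at 0.65 in spleen (77 against 37 UMIs) and at -1.80 in bone marrow (9 against 93). Ccl4, another chemokine, was at 0.40 in spleen (201 against 116 UMIs) and at -0.95 in bone marrow (13 against 73). Gm42418 was at -0.037 in spleen (20083 against 15768 UMIs) and at 0.17 in bone marrow (7980 against 20292), so its opposite signs were small in size. Each tissue had 1 hashtagged population per diet.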

How the results depend on the processing

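Counting error is the only error known here, and depth limits the comparisons within cluster 7, whose populations held 91039 to 335903 UMIs. Of the counts and shares recomputed, 115 stayed within their range and 24 moved; of list and length medians 556 stayed and 371 moved; of single genes 1452 stayed, 712 moved and 24 changed sign. No paired analysis was possible because each population is 1 hashtag of 1 library and no test was run. The cause of the changes was not tested.

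The 47 genes at least 2-fold higher and 13 lower became 86 and 30 after thinning, 73 and 23 with no minimum level, 20 and 8 at 50 CPM, and 13 and 31 without sub-clusters 3 and 5. The higher genes were 28 with doublets kept, 80 and 23 with pseudocounts of 1 and 20 CPM, and 17 without each gene's highest cell; the lower genes were 21 with totals that left out ribosomal protein and mitochondrial genes, 4 with the same weight per cell and 21 with the same weight per population. Leaving out 1 population at a time gave 31 to 69 higher and 11 to 15 lower, the lowest count of higher genes being that without ad libitum tumour (31).

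Genes called between fasted and ad libitum spleen were 189, and 97 with a pseudocount of 20 CPM. After thinning, those between refed and ad libitum spleen went from 167 to 103, fasted and ad libitum bone marrow from 400 to 148, ad libitum and naive spleen from 240 to 86, ad libitum bone marrow and spleen from 406 to 230, fasted tumour and spleen from 856 to 565, and fasted tumour and bone marrow from 657 to 292 (411 without sub-clusters 3 and 5).

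Cd74, H2-Aa, H2-Eb1 and H2-Ab1 turned to -0.76, -1.12, -1.15 and -0.71 with the same weight per population, to -0.85, -1.11, -0.94 and -0.74 without each gene's highest cell, to -1.02, -1.27, -1.13 and -0.95 without ad libitum tumour (2.49, 2.72, 2.82 and 2.80 without fasted tumour, the other end of the range), and to -3.64, -2.40, -1.61 and -2.08 without sub-clusters 3 and 5. Without those sub-clusters Apoe turned to -2.46, Lgmn to -1.09, Ms4a6d to -1.14, Tgfbi to -1.14 and C1qa to -1.97, and Il7r in fasted against ad libitum spleen to -0.97. Against the other clusters, they were left out of cluster 7 only, and the other clusters kept their 111 cells with macrophage markers. Cd74, H2-Aa, H2-Ab1, Apoe and Lgmn were leading genes of sub-cluster 5, and Il7r of sub-cluster 3. Turns of such genes follow from how the cells left out were chosen and are no test. After thinning, Isg15 in refed against ad libitum spleen turned to 0.025 and Hmox1 in ad libitum bone marrow against spleen to 2.37.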
